A study of Homo sapiens with 8 samples.

Results

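The interleukin-1 gene cluster of chromosome 2 was followed through 8 ATAC-seq peak lists. ATAC-seq uses a transposase that inserts sequencing adapters into open chromatin, so a listed peak marks a stretch that was accessible in that library. The 9 genes taken, out of 20033 protein-coding genes with a position in RefSeq (GRCh38.p14), were IL1A, IL1B, IL37, IL36G, IL36A, IL36B, IL36RN, IL1F10 and IL1RN. They were chosen by their membership of the cluster, and the cluster itself was selected on the IL1B peak counts of these same lists with and without drug, so the differences between treatments are given as a description, without a test. For each gene the peaks that overlapped its body or the 50 kb on either side, by at least 1 bp, were counted (its window). The span from 50 kb before IL1A to 50 kb after IL1RN, chr2:112723925-113184014, is 460 kb long and held 33 of the 69131 regions that result from merging overlapping peaks of all 8 lists.

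The libraries came from H1975 and HCC44, 2 established human lung cancer cell lines that carry the genotype label WT. Cells of either line had received the solvent DMSO or ACBI1 (1 mM by the label) over 96 h, with 2 replicates for every combination of line and treatment, 4 groups in all. ACBI1 is a small molecule that marks SMARCA2, SMARCA4 and PBRM1 for degradation. SMARCA2 and SMARCA4 are the alternative motor subunits of SWI/SNF, which slides and evicts nucleosomes and so keeps many enhancers open, and PBRM1 is a subunit of one form of that complex. The labels do not say whether replicates were separate cultures, so any p-value measures the spread between these samples, which may be technical. No reads were given, and the depth of each library is unknown. The lists ran from 41027 to 50347 peaks with DMSO and from 22133 to 27682 with ACBI1. Peaks at the boundaries (1 kb either side of either end) of the epithelial genes KRT8, KRT18, KRT19 and EPCAM were listed in all 8 samples. Of 6 epithelial markers 4 to 6 had one per sample, of 3 mesenchymal markers 2, and of 5 myeloid markers 3 to 4. PTPRC, a leukocyte gene, and LYZ, taken as a myeloid marker, had none in any sample. The myeloid genes SPI1 and CD14 had one in all 8, CSF1R in 6 and ITGAM in 3. CD3E, a T cell gene, had one in 3 DMSO samples (both of H1975 and replicate 2 of HCC44) and in no ACBI1 sample. A peak near a gene does not show that the gene is expressed.

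Interleukin-1 cytokines are secreted or released alarm signals of innate immunity. IL1A and IL1B encode the agonists of the interleukin-1 receptor, IL-1α and IL-1β, and IL1RN encodes the antagonist that occupies the same receptor without signalling. IL36A, IL36B and IL36G encode agonists of the interleukin-36 receptor, active mainly in epithelia, and IL36RN encodes its antagonist. IL37 and IL1F10 encode IL-37 and IL-38, which are known for anti-inflammatory activity. Epithelial and tumour cells can make IL-1α and IL-1β, although myeloid cells are the major source of IL-1β.

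The promoter windows of IL1A, IL1RN and IL1B show where listed peaks did and did not lie at gene starts. Each covers the 250 bases upstream and the 50 bases downstream of a start site, written 5′ to 3′ on the strand of the gene as RefSeq gives it (GRCh38.p14), and capitals mark matches to TGANTCA, the AP-1 motif. IL1A is on the minus strand, at chr2:112784444-112784743, IL1RN on the plus strand, at chr2:113117721-113118020, and IL1B on the minus strand, at chr2:112836730-112837029.
IL1A: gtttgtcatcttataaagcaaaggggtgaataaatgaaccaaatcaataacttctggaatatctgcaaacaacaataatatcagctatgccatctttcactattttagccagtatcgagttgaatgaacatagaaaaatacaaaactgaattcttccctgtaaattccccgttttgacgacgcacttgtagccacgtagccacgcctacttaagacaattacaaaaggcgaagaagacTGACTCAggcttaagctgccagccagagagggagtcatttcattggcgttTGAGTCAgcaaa
IL1RN: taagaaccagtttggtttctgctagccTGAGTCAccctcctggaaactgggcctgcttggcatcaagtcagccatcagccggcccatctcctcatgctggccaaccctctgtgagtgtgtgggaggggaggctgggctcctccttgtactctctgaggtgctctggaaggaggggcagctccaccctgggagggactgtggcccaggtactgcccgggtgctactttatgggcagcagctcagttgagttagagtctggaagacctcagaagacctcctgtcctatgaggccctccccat
IL1B: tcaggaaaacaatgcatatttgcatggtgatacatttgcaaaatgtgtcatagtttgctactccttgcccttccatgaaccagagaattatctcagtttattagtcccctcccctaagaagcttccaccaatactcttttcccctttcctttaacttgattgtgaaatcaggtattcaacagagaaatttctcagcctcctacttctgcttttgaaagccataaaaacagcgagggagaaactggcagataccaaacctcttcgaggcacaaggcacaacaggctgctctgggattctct

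The printed IL1A and IL1RN windows each overlapped a listed peak in every DMSO library (4 of 4) and in no ACBI1 library (0 of 4). Both AP-1 matches of the IL1A window, at bases 239 to 245 and 289 to 295, lay inside the peak in each of the 4 DMSO samples, and so did the match of the IL1RN window, at bases 28 to 34. IL1RN has 2 further windows in the RefSeq table, at chr2:113127239-113127538 and chr2:113127348-113127647, and neither overlapped a peak in any sample. The IL1B window held no match to any motif searched and overlapped a peak in 1 sample, H1975 DMSO replicate 1. Of the 9 genes 8 had promoter windows in the RefSeq table, 14 in all, and IL36B was not among them. Besides AP-1, 6 motifs were searched on both strands: NF-kB as GGANNTTCC, C/EBP as TTGCGNAA, IRF as GAAANNGAA, TEAD as GGAATG, CRE as TGACGTCA and the TATA box as TATAAA. In the 3 printed windows these gave 1 match, a TATAAA at bases 12 to 17 of the IL1A window, outside every peak, and no match overlapped another motif there. A match is a description of the letters and not a measured binding site. TGANTCA was present in 7.71% of the 35116 promoter windows of this length on the chromosomes used.

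IL1B had peaks around it in all 4 DMSO samples and 1 peak in the 4 ACBI1 samples together. In H1975 its window held 8 and 4 peaks in the DMSO replicates against 0 and 0 in the ACBI1 replicates. In HCC44 the DMSO replicates had 9 and 9 and the ACBI1 replicates 1 and 0. The groups did not overlap in either line; across all protein-coding genes, both ACBI1 samples likewise had fewer peaks than both DMSO samples for 43.3% in H1975 and 55.1% in HCC44. The means were 6 ± 2.83 against 0 ± 0 in H1975 and 9 ± 0 against 0.5 ± 0.707 in HCC44 (SD, n = 2 each). Among protein-coding genes with at least 4 window peaks in both H1975 DMSO samples, 0.259% (27 of 10407) had 0 in both ACBI1 samples. Among those with at least 9 in both HCC44 DMSO samples, 0.711% (20 of 2812) had at most 1 in both ACBI1 samples. These limits are the values of IL1B itself, so the shares only place it. No peak lay within the IL1B body in any list.

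The count rested on how far down each list was read, above all in H1975. When each list was reduced to its 22133 peaks with the highest −log10 q, the length of the shortest list, the IL1B window held 0 and 1 peaks in H1975 DMSO and 0 and 0 in H1975 ACBI1. In HCC44 it then held 2 and 3 with DMSO and 1 and 0 with ACBI1. The difference between means was then −0.5 in H1975 and −2 in HCC44, against −6 and −8.5 with whole lists. The peaks around IL1B were low in the H1975 lists: with replicate 1 they lay between the 2.77 and the 28.8 percentile of −log10 q (the authors' significance of a peak, ranked within its list), and with replicate 2 between 10.9 and 49.95. In HCC44 they reached the 70.9 and 73.6 percentile. Without H1975 DMSO replicate 1 the difference was −4, and without replicate 2 it was −8.

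IL1A, the other agonist of the interleukin-1 receptor, had 10 and 7 window peaks in H1975 DMSO and 4 and 4 in H1975 ACBI1. Its HCC44 counts were 10 and 10 against 3 and 3. The peaks left with ACBI1 all lay on the side away from IL1B, in or at NT5DC4 and CKAP2L, the neighbouring genes. At the IL1A start itself, chr2:112784216-112784586, peaks of 318 and 260 bp in H1975 DMSO and of 344 and 353 bp in HCC44 DMSO were listed. The H1975 peaks had an authors' fold enrichment of 8.10 and 9.09, and the HCC44 peaks of 3.91 and 3.70, which placed them at the 74.8 and 82.4 percentile of the H1975 lists and at the 12.3 and 12.7 percentile of the HCC44 lists. By −log10 q they were low in all 4 lists, at the 26.5 and 33.5 percentile in H1975 and at 11.3 and 8.69 in HCC44. The lists differ in length, so each rank describes the peak within its own list.

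The IL-36 agonist genes had up to 5 window peaks in a sample. IL36A had 2 and 2 window peaks in H1975 DMSO and 1 and 0 in H1975 ACBI1, and 3 and 0 in HCC44 DMSO against 1 and 1 in HCC44 ACBI1. IL36G had 5 and 5 in H1975 DMSO and 3 and 0 in H1975 ACBI1, while its HCC44 counts were 4 and 2 against 2 and 2. The groups of both genes overlapped or touched in HCC44 and not in H1975. IL36B had 3 and 3 in H1975 DMSO against 1 and 1 in H1975 ACBI1, and 4 and 2 in HCC44 DMSO against 0 and 0 in HCC44 ACBI1. None of these 3 gene bodies contained a listed peak in any sample.

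The antagonist genes showed the same order of groups. IL1RN had 6 and 6 window peaks in H1975 DMSO, 3 and 2 in H1975 ACBI1, 7 and 6 in HCC44 DMSO, and 1 and 1 in HCC44 ACBI1. Its body held 2 and 2 peaks in H1975 DMSO and 3 and 2 in HCC44 DMSO, against 0 in each ACBI1 list. IL36RN had 3 and 3 in H1975 DMSO against 1 and 1 in H1975 ACBI1, and 5 and 2 in HCC44 DMSO against 0 and 0 in HCC44 ACBI1. The windows of IL36B, IL36RN, IL1F10 and IL1RN overlap, so the same peaks enter several of these counts.

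Of the genes for the anti-inflammatory members, IL37 had 7 and 6 window peaks in H1975 DMSO against 4 and 0 in H1975 ACBI1, and 6 and 5 in HCC44 DMSO against 3 and 2 in HCC44 ACBI1. The H1975 ACBI1 replicates thus differed by 4 peaks. IL1F10 had 4 and 4 in H1975 DMSO against 1 and 1 in H1975 ACBI1, and 6 and 4 in HCC44 DMSO against 0 and 0 in HCC44 ACBI1.

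**Figure D1:**
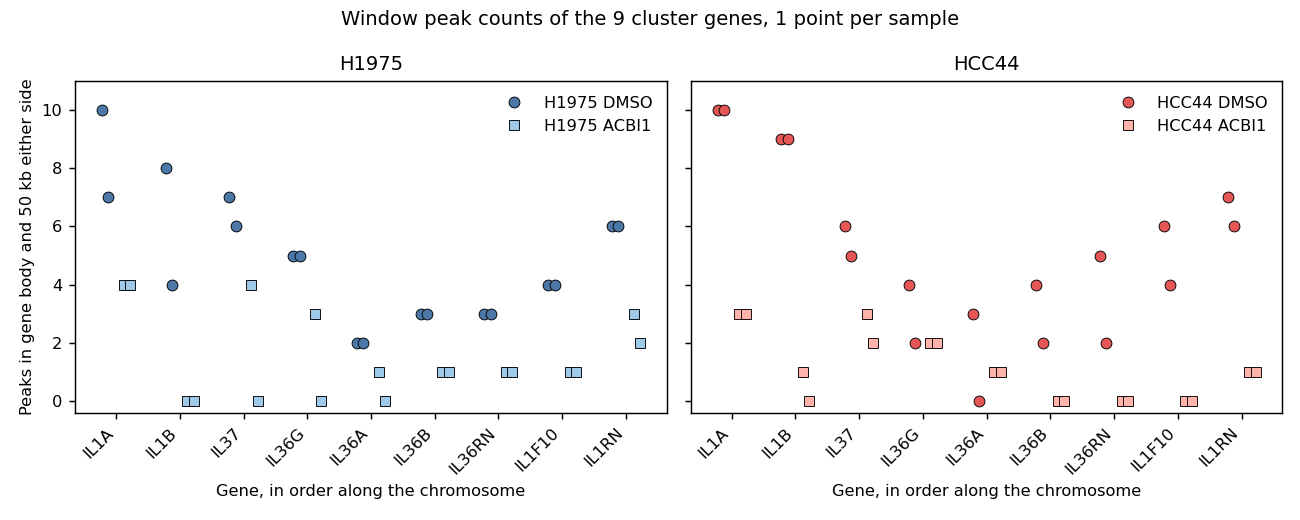
Number of listed peaks in the body and 50 kb either side of each of the 9 genes (vertical axis), in chromosome order, with 1 point per sample, circles for DMSO and squares for ACBI1, H1975 on the left and HCC44 on the right. The IL1B points sit at 8 and 4 (H1975) and 9 and 9 (HCC44) with DMSO and at 1 or 0 with ACBI1, while the HCC44 points of IL36G and IL36A overlap or touch.

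A gene was called lower where both ACBI1 samples had fewer window peaks than both DMSO samples. All 9 members were called lower in H1975 and 7 of 9 in HCC44, beside the 43.3% and 55.1% of all genes. None was called higher in either line, where 1.45% of genes in H1975 and 1.79% in HCC44 were. The median difference between group means over the 9 genes was −3.5 peaks in each line, beside −1 over all genes in each. Because neighbouring windows share peaks, the 9 counts are not independent, and lower counts were common across the genome. IL1B, whose counts chose the cluster, is among the 9, and its window shares peaks with those of IL1A and IL37. With lists of equal length, 1 of 9 members was called lower in H1975, beside 11.2% of all genes, and 6 of 9 in HCC44, beside 12.9%.

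**Figure D2:**
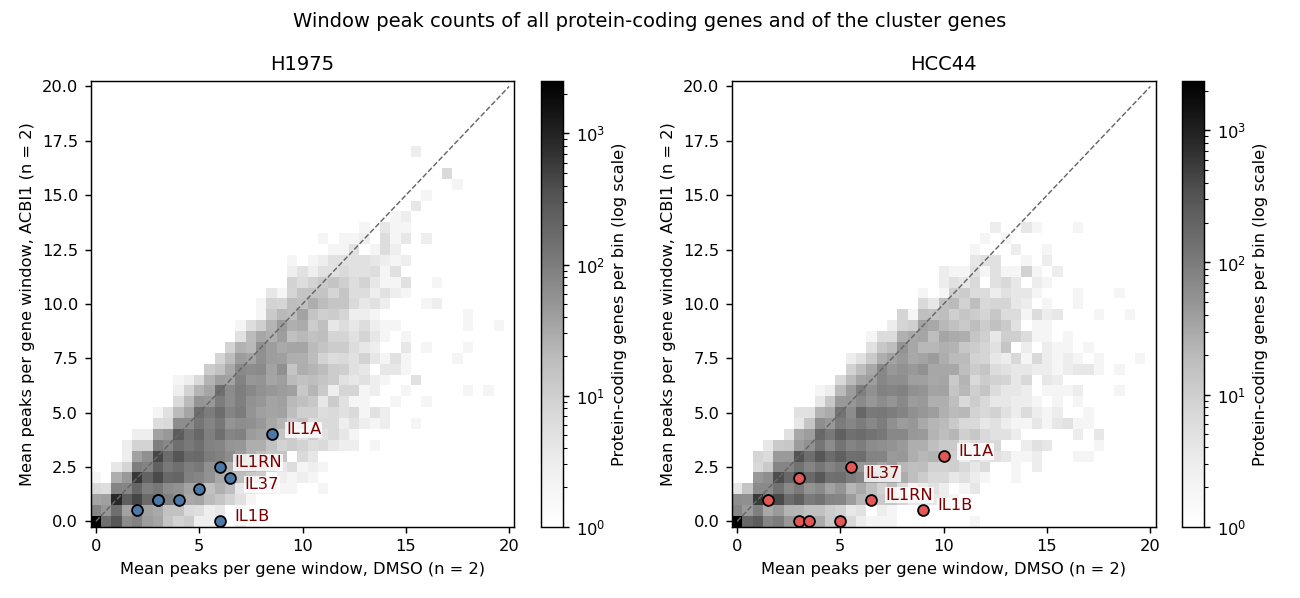
Mean number of window peaks with ACBI1 (vertical axis) against DMSO (horizontal axis), n = 2 each, with all protein-coding genes as grey bins on a log colour scale (genes beyond the axes are not drawn) and the 9 cluster genes as points, 4 of them named. The dashed line marks equal counts, and IL1B lies at 6 and 0 in H1975 and at 9 and 0.5 in HCC44.

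The positions of the peaks show which parts of the cluster were concerned. The 4 regions that had a peak in all 8 samples lay at the edges of the span. One was in NT5DC4 (chr2:112725072-112727014), a pair in CKAP2L (chr2:112749773-112750502 and chr2:112763964-112765098, the latter at its start), and the last, chr2:113157194-113158640, was outside genes, 15331 bp from PSD4. CKAP2L encodes a protein of the mitotic spindle, and neither NT5DC4 nor PSD4 belongs to the interleukin-1 family. Between these edges no region had a peak in all 4 ACBI1 samples. Chr2:112941850-112942803, between IL37 and IL36G, came nearest, with a peak in all 4 DMSO samples and 3 of 4 ACBI1 samples. Further towards IL36G, chr2:112958587-112959428 had a peak in both H1975 DMSO samples, HCC44 DMSO replicate 1, H1975 ACBI1 replicate 1 and both HCC44 ACBI1 samples. These are the positions behind the HCC44 counts of IL36G and IL36A, which overlap or touch between treatments.

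Some regions were kept in H1975 and not in HCC44. Chr2:112736885-112737803, where NT5DC4 and CKAP2L meet, and chr2:113077912-113080229, 2069 bp from IL1F10, had peaks in all 4 DMSO samples and both H1975 ACBI1 samples but in neither HCC44 ACBI1 sample. The latter was 1274 and 1382 bp wide in H1975 DMSO, and 2143 and 239 bp in H1975 ACBI1, so the ACBI1 replicates differed there. Chr2:112936252-112936841, also present in all 4 DMSO samples, and chr2:112891379-112891722, present in the H1975 DMSO samples alone, were kept in H1975 ACBI1 replicate 1 only. Chr2:113138520-113139225 was listed in H1975 ACBI1 replicate 1 and HCC44 DMSO replicate 2. H1975 ACBI1 replicate 2, the shortest list, lacked all of these except the first pair.

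**Figure D3:**
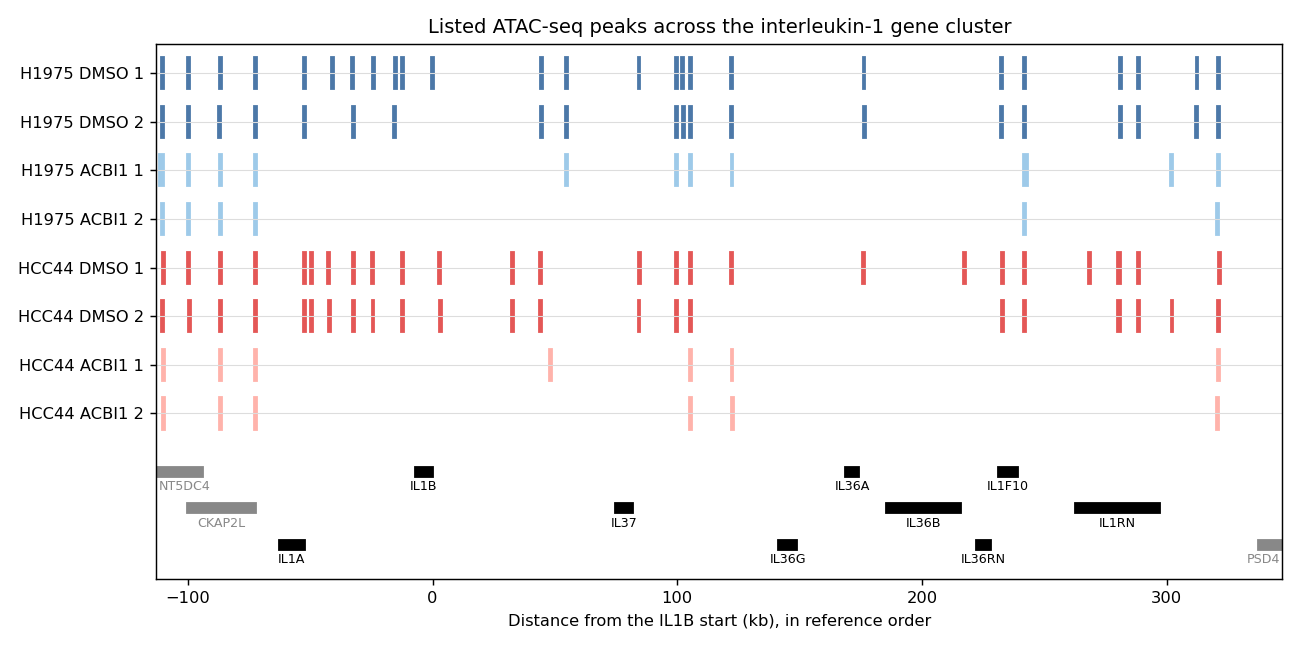
Listed peaks (coloured blocks, drawn at least 1.2 kb wide to be visible) of the 8 samples along the span, by distance in kb from the IL1B start, with protein-coding genes below, cluster genes in black and neighbours in grey. DMSO rows carry 20 to 25 peaks and ACBI1 rows 6 to 11, and the stretch around IL1B is empty in ACBI1 rows but for 1 peak in HCC44 replicate 1.

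A set of 6 regions had a peak in every DMSO library and in no ACBI1 library. They were the IL1A start described above, a start inside the IL1RN body (that of the printed window), and 4 others. The IL1RN body begins upstream of that window, at chr2:113099360, and no list had a peak at that position. The region at the start inside IL1RN, chr2:113116393-113117934, was 341 and 323 bp wide with DMSO in H1975, and 1477 and 1449 bp wide in HCC44, so the listed stretch was longer in HCC44. A second region in the IL1RN body, chr2:113124389-113125819, was of like width in the lines, with 1378 and 1391 bp (H1975 DMSO) against 1334 and 1322 bp (HCC44 DMSO), and its −log10 q stood at the 70.8 and 79.0 percentile of the HCC44 lists. One more peak of the IL1RN body, chr2:113105107-113105393, was listed in HCC44 DMSO replicate 1 only. The exon structure at these positions was not used here.

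Between IL1A and IL1B lay chr2:112803881-112804524, with its centre 32.6 kb from the IL1B start and outside any gene of the table. Its fold enrichment stood at the 95.0 and 97.7 percentile of the HCC44 DMSO lists and at the 53.8 and 40.3 percentile of the H1975 DMSO lists. On the other side of IL1B was chr2:112880146-112881550, which was broad in HCC44 DMSO, 1327 and 1322 bp, and narrow in H1975 DMSO, 265 and 214 bp. The remaining one, chr2:113069107-113069992, overlapped the IL1F10 body, and was again narrower in H1975 DMSO (276 and 197 bp) than in HCC44 DMSO (842 and 863 bp).

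Around IL1B the regions of the lines differed. HCC44 DMSO samples both had a peak of 917 and 893 bp at chr2:112839358-112840322, in AMANZI, a long non-coding RNA gene beside IL1B, with its centre 3.06 kb from the IL1B start, and neither H1975 DMSO sample had one. Both H1975 DMSO samples, and neither HCC44 DMSO sample, had a peak at chr2:112821254-112821874, in the non-coding gene LOC124907871. Another region of that gene, chr2:112824297-112824953 at its promoter window, had a peak in both HCC44 DMSO samples and H1975 DMSO replicate 1. In the span, 4 regions were listed in both HCC44 DMSO samples and neither H1975 DMSO sample, and 4 in the reverse. The IL1B start itself, chr2:112836827-112837051, had a peak of 225 bp in H1975 DMSO replicate 1, at the 2.77 percentile of −log10 q, near the threshold of that list. The single ACBI1 peak of the window, chr2:112884857-112885349 in HCC44 replicate 1, lay where no DMSO sample had a peak.

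Over the whole span, the counts in H1975 were 25 and 20 with solvent against 11 and 6 with drug. Those in HCC44 were 25 and 22 against 7 and 6. The groups did not overlap. The ACBI1 mean was 37.8% of the DMSO mean in H1975 and 27.7% in HCC44, where the whole lists stood at 58.9% and 51.0%. The span counts include the IL1B window peaks on which the cluster was selected, so these shares only describe the span. That window held 8 and 4 peaks against 0 and 0 in H1975, and 9 and 9 against 1 and 0 in HCC44. The covered length was 13.7 ± 3.10 kb with DMSO and 6.49 ± 4.25 kb with ACBI1 in H1975, and 18.0 ± 0.474 kb and 3.81 ± 0.0240 kb in HCC44 (SD, n = 2 each). The 3.49 kb of H1975 ACBI1 replicate 2, the shortest list, lay far below the 9.49 kb of replicate 1. With lists of equal length, the span held 7 and 8 peaks in H1975 DMSO and 8 and 6 in H1975 ACBI1, so the H1975 groups then overlapped, while HCC44 had 9 and 11 against 6 and 6. The covered length of H1975 was then 0.430 kb higher with ACBI1.

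A region was called lost in a line where both DMSO samples and neither ACBI1 sample had a peak. Of the 20 span regions that both H1975 DMSO samples listed, 10 were lost, 6 were kept in both ACBI1 samples and 4 in 1 of them. In HCC44, 16 of 21 were lost and 5 kept in both. Genome-wide, the share of such regions lost was 36.8% (H1975) and 49.2% (HCC44). Boundaries here were the outer ends of protein-coding genes, with 1 kb either side. Starts inside a gene body and starts of non-coding genes were not counted as boundaries. The regions at the printed IL1RN window and at the promoter windows of AMANZI and LOC124907871 were therefore classed as away from boundaries. For regions that touch no such boundary, 29 of the 33 in the span, the genome-wide share was 50% (H1975) and 63% (HCC44), beside 9 of 17 and 14 of 18 in the span. The whole span was thus near the background of regions away from boundaries in H1975. In HCC44 its share was above that background with the IL1B window included, and this difference was not tested. The span holds the IL1B window, whose counts chose the cluster and where 9 of 9 HCC44 regions were lost. Most of the 14 lost HCC44 regions away from boundaries lay in that window, and the 4 kept ones lay outside it. The HCC44 share therefore rests largely on the values used for the choice, and it only describes the span. It does not show that the rest of the span lay above the background. The counts in the span moved with the settings: with lists of equal length 2 regions were lost in H1975 and 6 in HCC44, with at least 50% of a region covered 5 in H1975, and at a minimum fold of 5 it was 9 in HCC44. Without H1975 DMSO replicate 2 the H1975 count was 15. In the IL1B window, the IL1A start included, 4 of 4 regions listed in both DMSO samples were lost in H1975 and 9 of 9 in HCC44.

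Lost regions of the span ranked lower in the DMSO lists than kept ones in H1975, and not in HCC44, by their medians. The median −log10 q percentile, averaged over the DMSO replicates, was 28.4 for the 10 lost and 76.9 for the 6 kept regions of H1975. In HCC44 it was 54.5 for the 16 lost and 44.1 for the 5 kept regions. Across the genome, away from boundaries, loss was least frequent above the 80 percentile of the lists, at 5.73% in H1975 and 38.8% in HCC44. Between the 60 and 80 percentile it was 31.3% and 60.2%, and between the 20 and 40 percentile 67.1% and 68.3%. In the span, away from boundaries, 0 of 3 regions between the 60 and 80 percentile were lost in H1975 and 6 of 7 in HCC44. Between the 20 and 40 percentile, 5 of 6 were lost in H1975 and 1 of 3 in HCC44. A region that was not lost could still be kept in only 1 ACBI1 sample. Among the 3 of H1975, chr2:112891379-112891722 and chr2:112936252-112936841 were such regions. These are small counts.

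**Figure D4:**
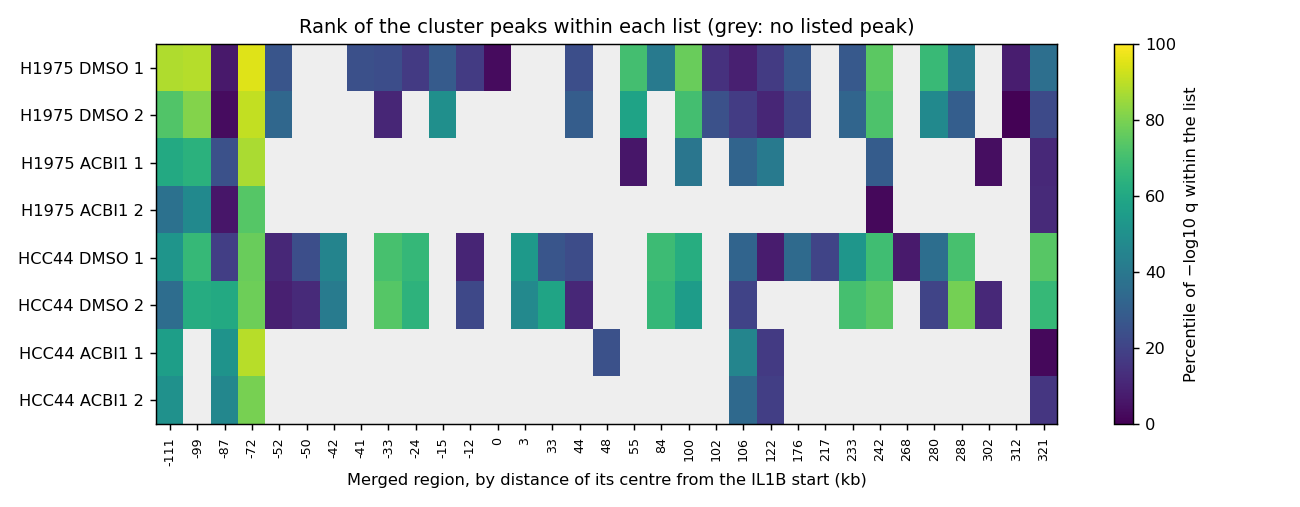
Percentile of −log10 q within each list (colour, 0 to 100) for the 33 merged regions of the span (horizontal axis, distance in kb of the region's centre from the IL1B start) in the 8 samples (rows), with grey where no peak was listed. From the IL1A start, 52.4 kb to the left of the IL1B start, to 44.1 kb on its right the ACBI1 rows are grey throughout, and the DMSO colours there reach the 49.95 percentile in H1975 and 73.6 in HCC44.

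With DMSO alone, the comparison of the lines was not used to choose the cluster. HCC44 had 23.5 ± 2.12 and H1975 22.5 ± 3.54 peaks in the span (SD, n = 2 each), a difference of 1 (exact permutation test, two-sided, p = 1 over 6 arrangements). The covered length was 4.32 kb greater in HCC44, where either sample exceeded either H1975 sample (p = 0.333 in the same exact test, which cannot give less with 2 samples against 2). At a minimum fold of 5 both directions turned, to −0.81 kb and −4.5 peaks, and at a minimum −log10 q of 20 the count difference was −1. Leaving out 1 replicate, the length difference lay between 2.12 and 6.51 kb. The count difference turned to −1.5 without H1975 DMSO replicate 2 and to −0.5 without HCC44 DMSO replicate 1. Of the regions listed in both replicates of a line, 14 were common to the lines, which is 70.0% of the 20 in H1975 and 66.7% of the 21 in HCC44.

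Along 2 Mb around IL1B, the stretch between −100 and 400 kb of the gene's centre held 25 and 20 peaks in H1975 DMSO and 12 and 6 in H1975 ACBI1. The rest of the 2 Mb held 35 and 30 against 27 and 22. In HCC44 the stretch held 26 and 23 with DMSO and 8 and 7 with ACBI1, and the rest 39 and 40 against 22 and 21. The stretch holds the IL1B window on which the cluster was selected. With its sides pooled, the rest of the 2 Mb also held fewer peaks in the ACBI1 samples. Of the neighbouring genes, CKAP2L had 9 and 8 window peaks in H1975 DMSO, 6 and 6 in H1975 ACBI1, 12 and 12 in HCC44 DMSO and 4 and 4 in HCC44 ACBI1. PSD4, at the other edge, had 7 and 7 against 7 and 5 in H1975, where the groups touched, and 6 and 7 against 5 and 4 in HCC44.

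**Figure D5:**
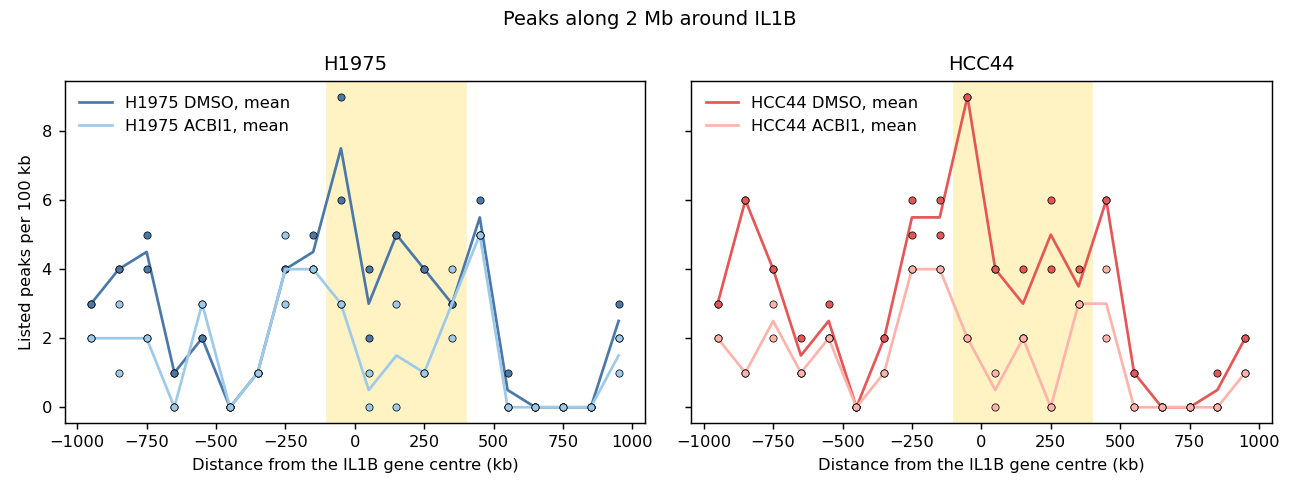
Listed peaks per 100 kb (vertical axis) along 2 Mb centred on IL1B (horizontal axis, kb), with points for samples and lines for group means, and the stretch from −100 to 400 kb shaded. In the bin just before the IL1B centre the DMSO samples have 9 and 6 (H1975) and 9 and 9 (HCC44) peaks and the ACBI1 samples 3 and 3 and 2 and 2.

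Outside the cluster, 24 genes of interleukin-1 signalling were counted the same way. In H1975, 16 were called lower, 1 higher and 7 neither, and in HCC44 19, 0 and 5, beside the 43.3% and 55.1% of all genes called lower. Of all genes, 1.45% were called higher in H1975 and 1.79% in HCC44. The median difference was −1 peak in H1975 and −2 in HCC44, beside −1 over all genes in each line. Of the 2 ligands, IL18 had 5 and 5 against 4 and 3 in H1975 and 5 and 6 against 2 and 3 in HCC44 (DMSO against ACBI1, as in the next sentences). Of the 8 receptor genes 7 were lower in H1975 and 6 in HCC44. IL1R1, the signalling receptor for IL-1α, IL-1β and the IL1RN product, had 10 and 8 against 5 and 5 in H1975 and 16 and 14 against 7 and 7 in HCC44. IL1R2, its decoy receptor, had 3 and 3 against 2 and 2 and 7 and 6 against 4 and 4. IL1RL2, the interleukin-36 receptor, had 6 and 5 against 5 and 4, which touch, and 8 and 8 against 5 and 5. Several of these receptor genes are neighbours with overlapping windows.

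Of the 10 signalling genes 6 were lower in H1975 and 9 in HCC44, beside 43.3% and 55.1% of all genes. These counts are of whole lists, and the genes outside the cluster were not counted with lists of equal length. The 1 gene called higher in H1975 was the kinase gene IRAK1. The adaptor MYD88 had 9 and 8 against 4 and 2 in H1975 and 5 and 5 against 3 and 3 in HCC44, and the ubiquitin ligase TRAF6 had 3 and 3 against 1 and 1 and 4 and 4 against 2 and 1. Of the 4 genes for processing and release, CASP1, the protease that matures IL-1β, had 1 and 1 against 0 and 0 in H1975 and 2 and 2 against 0 and 0 in HCC44. NLRP3, an inflammasome sensor, had 1 and 1 against 2 and 1 and 1 and 2 against 2 and 2, so its groups overlapped or touched in both lines.

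The genes outside chromosome 2 whose 8 counts were nearest to those of IL1B, by the sum of absolute differences over the 8 samples, were UNC5C (5), LOC124903162 (6), RNLS (7), CLNK (7) and ARNT2 (8). UNC5C, a netrin receptor gene, had 5 and 4 against 0 and 0 peaks in H1975 and 10 and 9 against 0 and 0 in HCC44. Their windows are longer than the 107 kb of IL1B, from 239 kb for LOC124903162 to 512 kb for RNLS.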

How the data were processed

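ATAC-seq peak lists of 8 samples (H1975 and HCC44 with DMSO or ACBI1, 2 replicates each) were used as deposited, 1 list per sample. The authors' notes name BWA and hg38, per the submitters' processing notes, and the caller and its filters are not given in the sources used here. The lists have no header. Column 7 was read as the fold enrichment and column 9 as −log10 q of each peak, as the authors deposited them in broadPeak layout. Depth is unknown, and both values were used only to rank or filter peaks within a list. The lowest −log10 q was 10.04 to 10.21, so a stretch without a listed peak lay under the authors' threshold and is not shown to be closed.

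Peaks were intersected with gene bodies extended by 50 kb (RefSeq, GRCh38.p14), and overlapping peaks of all lists were merged into regions, in Python 3.11.15 with pandas 2.3.3, numpy 2.4.6 and scipy 1.17.1. Counting and calling were tested on simulated data. The lines with DMSO were compared by an exact permutation test. The genes named are the 9 members, the genes of the span, a list of 24 interleukin-1 signalling genes, and the 5 protein-coding genes outside chromosome 2 nearest to IL1B in their 8 counts. The regions named are those with a peak in all 4 DMSO samples or in any ACBI1 sample, and those at a member body or promoter window. The HCC44 region in AMANZI and the regions in LOC124907871 were chosen after their values were seen. Members and lists were chosen with earlier results of these data known, and the motifs were searched after the peaks and promoter sequences had been seen. Alternatives were a minimum fold of 5, a minimum −log10 q of 20, lists of equal length, peak centres, joined peaks, flanks of 10 and 100 kb, a replicate block, a peak covering at least 50% of a region, and leaving out each replicate.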

Additional observations from a re-analysis of the deposited data

Results flagged for a closer look

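IRAK1, which encodes a kinase of the interleukin-1 receptor signalling chain on chromosome X, had opposite differences in the lines. Its window in H1975 held 2 and 2 peaks in the DMSO samples against 4 and 3 in the ACBI1 samples, a difference between means of 1.5, and 6 and 6 against 4 and 4 in HCC44, a difference of −2. It was flagged because it was called higher in H1975 and lower in HCC44, and the difference between lines was not tested. Of all protein-coding genes, 1.45% were called higher in H1975 and 55.1% lower in HCC44. Other genes also had this pair of calls, and their share was not counted.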

How the results depend on the processing

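Differences are ACBI1 minus DMSO. With lists of equal length, the IL1B difference was −0.5 in H1975 and −2 in HCC44, the span difference −0.5 and −4 peaks, and the covered length 0.4305 kb, with its direction changed, and −4.9045 kb; 1 member was lower in H1975, and 2 and 6 regions were lost. At a minimum fold of 5, HCC44 gave −4 for IL1B, −13 peaks and −9.581 kb for the span, and 9 lost regions. At a minimum −log10 q of 20, HCC44 gave −6, −13.5 and −11.429 kb. A flank of 10 kb gave −2 for IL1B in both lines and −12.663 kb for the HCC44 span, and a flank of 100 kb −11.5, −19 and −14.7935 kb in HCC44. With at least 50% of the region covered, 5 regions were lost in H1975. Between lines with DMSO (HCC44 minus H1975), a minimum fold of 5 turned the span count to −4.5 and the length to −0.81 kb, and a minimum −log10 q of 20 turned the count to −1. Leaving out 1 replicate gave −8 to −4 (IL1B, H1975), −9 to −8 (IL1B, HCC44), 10 to 15 and 16 to 19 lost regions, and −1.5 to 3.5 peaks between lines. The causes were not tested. Of 89 alternative values and 48 leave-one-out values of 12 results, 6 changed direction, 26 moved and 105 did neither. A difference counted as moved beyond the replicates' SD and a number of genes or regions beyond 1.5 times. Values between lines were judged by direction alone. The replicate block could not change a difference, because it averages the same differences. The main values were therefore carried over, for example −6 for IL1B in H1975. They are counted among the 89 and the 105 and say nothing about stability. Same-numbered samples deviated together by a correlation of 0.113 in H1975 and 0.0455 in HCC44 over 20033 genes, so they were treated as sharing only a number. A peak list cannot show signal under its threshold, which limits every count of 0.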

Other observations

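Both promoter windows of IL1A and the printed one of IL1RN belong to a class of 240 promoter windows in the RefSeq table that overlapped a peak in all 4 DMSO samples and in none of the 4 ACBI1 lists. Of these, 94 (39.2%) held TGANTCA. Of the 12793 promoter windows with a peak in all 8 samples, 4.24% held it, and of the 17969 with no peak in any sample, 8.84%. Alternative starts of a gene give overlapping windows, so the windows are not independent, and the shares are descriptions without a test.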
